A study of Mus musculus with 57 samples.

Results

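The Gata4 locus was taken as the 100 kb on either side of the most upstream annotated Gata4 start site, mouse mm10 chr14:63271692, and every CUT&RUN peak with its summit in that window was followed over factor and time. Of 775358 peaks in 30 peak lists, 241 lay in the window. Summits no more than 250 bp apart were joined into sites, which gave 45 sites near Gata4 of 218737 genome-wide. A factor was counted at a site when both lists of its group held a summit there. By that rule 21 of the 45 sites held at least 1 factor, 19 held a peak in 1 list only, and 10 are described in full. Sites are named by their distance from the start site, with positive values running downstream into the gene, which lies on the minus strand, and negative values upstream.

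GATA4 is a zinc-finger transcription factor that binds GATA sequences and, with GATA6, SOX17 and SOX7, belongs to the regulators of the primitive endoderm (PrE), the extraembryonic layer that lines the blastocoel. NANOG and SOX2 are transcription factors of the pluripotent epiblast (Epi), and SOX2 and SOX17 are related HMG-box proteins that recognise similar sequences. GATA6 is known to act upstream of Gata4 when inner cell mass cells turn to PrE.

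The cells were mouse embryonic stem cells of the KH2 line, labelled strain C57BL/6, in which 1 copy of a doxycycline (Dox)-responsive bidirectional element drives GATA6-FLAG and the fluorescent protein DsRed2. All groups carried the transgene, including those at 0 h. CUT&RUN, in which an antibody directs micrococcal nuclease to chromatin and the released fragments are sequenced, was done in duplicate for GATA6 (0, 2, 4, 8 and 48 h after Dox), NANOG and SOX2 (0, 2, 4 and 8 h), and GATA4 and SOX17 (24 h), so that each of the 15 groups had 2 lists. Cells at 0 h were in 2i medium and induced cells in serum medium with Dox, which was withdrawn before the 24 h and 48 h samples, so that the effects of Dox and of the medium cannot be told apart. The cells form a population, in which more cells holding a factor and more factor per cell cannot be told apart either. Nothing in the labels says that the duplicates came from separate cultures, so p-values measure only the spread between these lists.

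Library sizes were not used here, and depth was read from the background coverage behind the peaks. It was 0.928 to 1.34 fragments per base for the induced GATA6 lists, 0.865 to 1.31 for NANOG, 0.29 to 0.692 for SOX2 and 1.23 to 1.55 for SOX17. The 2 GATA6 lists at 0 h had 0.287 and 0.315, from few fragment pairs, and the depth of the GATA4 lists is unknown. Those 0 h lists held 86 and 882 peaks, against 5933 to 79358 after induction, which is the check that the files offer on the induction itself. For 6 GATA6 lists, the time recorded with the file differs from the time in the peak names inside it. The lists recorded at 4 h carry names of 48 h, those recorded at 8 h carry names of 4 h, and those recorded at 48 h carry names of 8 h. The time carried in the names was used. By the record, GATA6 values given here for 4, 8 and 48 h would be those of 8, 48 and 4 h, and what this changes is given for the main counts and tests.

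The strength of a peak is given as the fold at its summit that the deposited lists hold, which is the fragment pileup plus 1 over the local background plus 1. The local background was measured in a control sample prepared with an anti-rabbit antibody raised in rabbit. The samples include 1 IgG control library, listed at 48 h. Whether it served as the control for the lists of every time is not stated. Pileups in whole fragments could be recovered for all 225 peaks of the window outside the GATA4 lists, to within 0.01%, and are given where they help to read a fold.

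**Figure D1:**
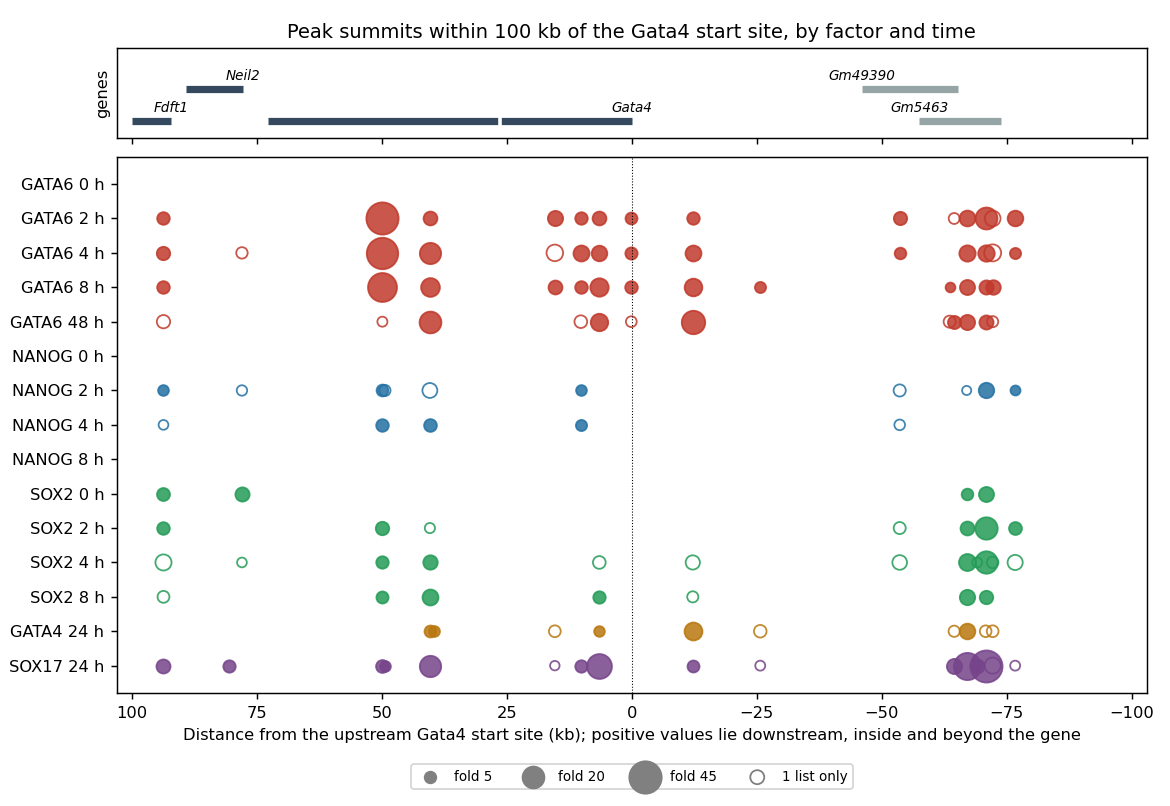
The 21 sites with a factor in both lists of at least 1 group, by distance from the upstream Gata4 start site in kb (horizontal) and group (rows), with the genes of the window above. Disc area grows with the mean fold, and open circles mark a peak in 1 of the 2 lists. No disc appears for GATA6 at 0 h or for NANOG at 0 and 8 h, and the largest GATA6 discs sit at +49.9 kb from 2 to 8 h.

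Of the 21 sites, 8 lay within the gene (chr14:63198922-63271692), most of them in introns. The others lay at Fdft1 and Neil2 downstream, in intergenic sequence, and in the noncoding genes Gm49390 and Gm5463 upstream. The 201 bp around the reference summit of the sites on which the results turn are printed here from the mm10 genome, with GATA matches on either strand in capitals. A match was AGATAA, the like motif AGATAG, the motif TGATAA or the motif TGATAG, and a match on the minus strand reads as its reverse complement. The first 3 lie in Gata4 introns, the -12.2 kb site between genes, and the last in an intron of Gm5463.
+49.9 kb site (chr14:63221669-63221869, plus strand): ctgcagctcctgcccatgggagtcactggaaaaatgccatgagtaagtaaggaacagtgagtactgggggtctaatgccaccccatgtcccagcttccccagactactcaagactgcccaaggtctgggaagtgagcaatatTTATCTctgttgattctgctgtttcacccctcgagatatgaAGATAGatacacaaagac
+40.4 kb site (chr14:63231189-63231389, plus strand): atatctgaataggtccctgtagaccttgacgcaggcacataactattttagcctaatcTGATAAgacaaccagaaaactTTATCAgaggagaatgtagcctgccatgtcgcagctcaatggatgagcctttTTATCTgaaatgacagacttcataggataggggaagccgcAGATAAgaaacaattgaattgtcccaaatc
+6.5 kb site (chr14:63265096-63265296, plus strand): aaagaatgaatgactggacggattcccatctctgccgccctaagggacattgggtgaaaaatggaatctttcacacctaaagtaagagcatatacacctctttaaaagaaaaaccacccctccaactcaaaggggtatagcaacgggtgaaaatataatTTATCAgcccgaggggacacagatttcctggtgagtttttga
-12.2 kb site (chr14:63283751-63283951, plus strand): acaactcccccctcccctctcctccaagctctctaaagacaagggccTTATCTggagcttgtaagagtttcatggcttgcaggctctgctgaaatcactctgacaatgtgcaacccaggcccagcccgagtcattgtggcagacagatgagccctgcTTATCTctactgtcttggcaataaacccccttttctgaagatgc
-70.8 kb site (chr14:63342434-63342634, plus strand): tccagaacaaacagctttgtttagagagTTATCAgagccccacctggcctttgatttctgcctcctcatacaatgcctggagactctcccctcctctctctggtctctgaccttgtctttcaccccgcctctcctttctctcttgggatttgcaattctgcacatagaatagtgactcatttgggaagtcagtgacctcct

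The +40.4 kb sequence held 4 matches, the +49.9 kb and -12.2 kb sequences 2 each, and the +6.5 kb and -70.8 kb sequences 1 each. Of the 12 sites with GATA6 at 2 h, 6 had a match within 100 bp of the summit, against 54.4% of 44120 such sites genome-wide, and the mean number was 1 against 0.967. The sites near Gata4 therefore stood close to the background at this width. Within 50 bp the count was 3 of 12 (26% genome-wide) and within 150 bp 11 of 12 (69.7%). The SOX core letters ACAATG or ACAAAG, on either strand and searched after the data had been seen, were found within 100 bp of the summit at 5 of 12 SOX17 sites, against 44.7% of 19057, and within 150 bp at 5 of 12 (58.1%). In the printed sequences they occur 2 times each at -12.2 kb and -70.8 kb, once at +49.9 kb, and not at +40.4 kb or +6.5 kb.

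GATA6 was the first factor followed, since it was induced directly. Neither list at 0 h held a GATA6 peak in the window. The lists held 16 and 15 peaks at 2 h, 13 and 15 at 4 h, 14 and 16 at 8 h, and 7 and 11 at 48 h. All induced lists thus lay above both 0 h lists, and the numbers at 2, 4 and 8 h overlapped. Peak number differed over the 5 time points (exact permutation test over 113400 arrangements, two-sided, p = 0.00952, adjusted over 3 factors p = 0.0286). That difference rests on the 0 h lists, which held 86 and 882 peaks genome-wide, so it says little about Gata4 in particular. Among the 8 induced lists alone, the mean fell by 6.5 from 2 to 48 h and the test gave p = 0.0857 (exact permutation test). Per 100000 peaks of each list, however, the window held 20.2 and 23.9 at 2 h and 118 and 113 at 48 h (48.8 and 52.9 by the recorded times).

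The shallow 0 h libraries limit what an empty window there can show. At the lower of its 2 h levels relative to background, a site would hold fewer fragments in a 0 h list than the smallest listed pileup, 5, at 5 of the 12 GATA6 sites. At +49.9 and -70.8 kb, where the local background at 2 h was 1.01 to 1.82 times that of the list, the expected pileups were 23.2 and 25.5 and 14.1 and 15.5 fragments. Where the local background is higher, that smallest pileup is no measure of what would have been listed. Genome-wide, 90.9% of 21911 protein-coding genes also had no GATA6 peak within 100 kb at 0 h.

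**Figure D2:**
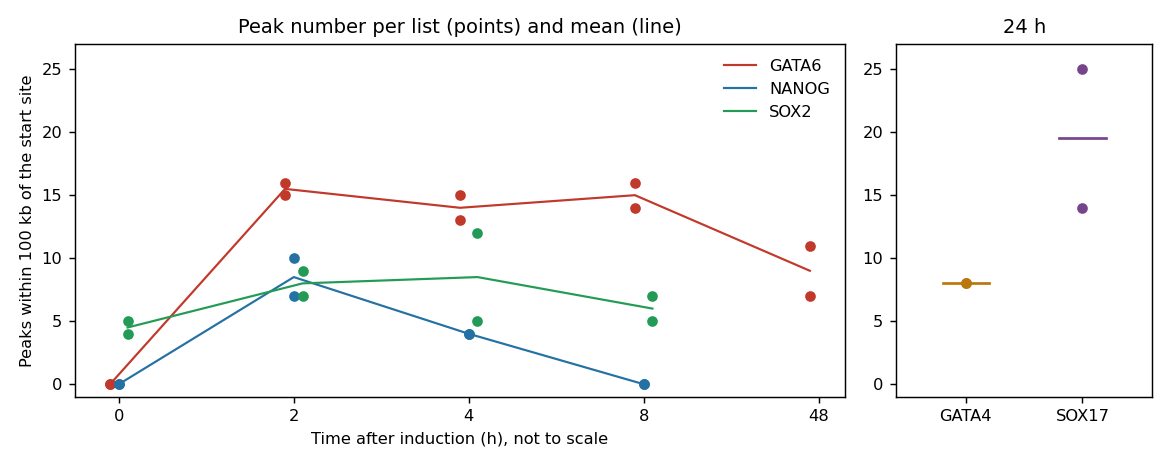
Number of peaks within 100 kb of the Gata4 start site in each list (points) and the mean of the 2 lists (lines), for GATA6, NANOG and SOX2 over time and for GATA4 and SOX17 at 24 h; the time axis is not to scale. GATA6 goes from 0 to 15 and 16 peaks at 2 h, NANOG is at 0 in the 4 lists of 0 and 8 h, and both GATA4 lists hold 8.

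The share of early sites that still held GATA6 later was above the genome-wide share at each time. Of the 12 sites with GATA6 at 2 h, 11 held it at 4 h (61.7% of 44122 such sites genome-wide), 10 at 8 h (36.9%) and 5 at 48 h (5.62%). The 5 sites were +40.4, +6.5, -12.2, -67.0 and -70.8 kb. By the recorded times the 48 h count was 10 of 12, beside a share of 36.9% of 44122 genome-wide. Without the first 48 h list it was 9 of 12, beside 4033 of the 44122 sites genome-wide. A further site, -64.5 kb, held GATA6 at 48 h at folds of 5.46 and 7.97, and in 1 of the 2 lists at 2 h at 4.40.

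The +49.9 kb intronic site was the strongest early GATA6 site of the window. Its folds were 46.4 and 42.9 at 2 h, 37.5 and 47.4 at 4 h, and 35.4 and 36.4 at 8 h, with pileups of 110 and 90, 86 and 101, and 82 and 81 fragments. Those folds did not leave the range of 35.4 to 47.4, and the 2 h peaks ranked 639 of 79358 and 458 of 62683 in their lists. At 48 h one list had no peak there and the other had a fold of 3.56 from 10 fragments, ranking 8787 of 9767. At the lower 2 h level the empty list would have held 75.2 fragments, where its smallest listed pileup was 7. Both 48 h lists were thus below every earlier list. By the recorded times these 2 lists are those of 4 h, and the site would be weak at 4 h and strong again at 8 and 48 h. With no peak in one list the site could not enter the fit over all 4 lists of 48 and 2 h. In the fit without the first 48 h list it stood at -3.65 on the log2 scale, with 99.6% of sites higher. That fit takes the lone 48 h list to vary like the others, since its own spread cannot be measured. In the fits described next its difference from 2 h was -0.08 at 4 h (limma adjusted p = 0.932) and -0.31 at 8 h (adjusted p = 0.463) on the log2 scale.

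The opposite order was seen at -12.2 kb, the site nearest upstream of the gene among the 21. GATA6 folds there were 6.08 and 5.98 at 2 h, 7.13 and 13.5 at 4 h, 11.8 and 13.9 at 8 h, and 25.7 and 20.8 at 48 h. Every list at 8 and 48 h was above both 2 h lists, and both 48 h lists were above all others. The pileups were 28 and 28 fragments at 2 h and 82 and 96 at 48 h, so the increase was in the fragments at the site. At 48 h the peak ranked 36 of 5933 and 69 of 9767 in its lists.

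The +40.4 kb intronic site, the one with 4 GATA matches, also gained GATA6 after 2 h. Folds of 8.04 and 7.10 at 2 h were followed by 18.3 and 19.6 at 4 h, 15.7 and 13.5 at 8 h, and 19.5 and 20.5 at 48 h. All later lists were above both 2 h lists. Its ranks at 48 h were 111 and 106.

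GATA6 declined at -70.8 kb in the Gm5463 intron. Its folds went from 19.5 and 21.2 at 2 h to 11.5 and 10.5 at 4 h, 6.82 and 9.10 at 8 h, and 9.45 and 6.37 at 48 h. The neighbouring -67.0 kb site held folds of 10.2 and 10.1 at 2 h and 9.21 and 9.37 at 48 h, with values of 7.58 to 12.9 between. No later list at -70.8 kb reached the 2 h folds, whereas those at -67.0 kb overlapped at 2 and 8 h.

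These changes were tested with limma on the log2 fold, over every site genome-wide called in all 4 lists compared. The comparisons share the 2 h lists. At 48 h against 2 h, 3 of the 5 Gata4 sites tested passed, 2 higher and 1 lower. Of 2478 sites genome-wide, 8.88% were higher and 47.8% lower. The other 7 of the 12 GATA6 2 h sites, +49.9 kb among them, lacked a peak in at least 1 list at 48 h. They were not in the fit and could not count as lower. The -12.2 kb site rose by 1.94 (SE 0.31, adjusted p = 0.000121), and 0.444% of the sites had a higher value. The +40.4 kb site rose by 1.41 (SE 0.31, adjusted p = 0.00135), with 2.22% of sites higher. The -70.8 kb site fell by 1.39 on the log2 scale (SE 0.32, adjusted p = 0.00217). The other 2 sites, +6.5 kb at 0.74 (SE 0.37, adjusted p = 0.0998) and -67.0 kb at -0.12 (SE 0.3, adjusted p = 0.746), did not pass.

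The median of all sites was -0.73 at 48 h against 2 h, so part of each value is a shift shared by the lists. With each list centred to the same median, 678 sites were higher and 621 lower in place of 220 and 1185, the -12.2 kb and +40.4 kb sites stood at 2.70 and 2.16, +6.5 kb passed at 1.5 (adjusted p = 0.00182), and the -70.8 kb site lost its call (-0.63, adjusted p = 0.101). The gains at -12.2 and +40.4 kb passed with any 1 of the 4 lists left out.

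At 8 h against 2 h, -12.2 kb (1.09, SE 0.33, adjusted p = 0.00798) and +40.4 kb (0.95, SE 0.33, adjusted p = 0.0199) were higher and -70.8 kb was lower (-1.37, SE 0.33, adjusted p = 0.00123), where 5.96% of 16288 sites were higher and 33.5% lower. Each of these calls was lost when a list was left out. It happened at -12.2 kb without the second 8 h list (adjusted p = 0.0973), at -70.8 kb without the first (0.0515), and at +40.4 kb without the second 2 h list (0.0724), the first 8 h list (0.18) or the second (0.0668). At 4 h against 2 h, +40.4 kb alone passed among the Gata4 sites (1.33, SE 0.38, adjusted p = 0.0244), where 1.03% of 27224 sites were higher and 2.56% lower, and it did not pass with any 1 of the 4 lists left out (adjusted p = 0.101 to 0.141). By the recorded times, the 3 sites called at 48 h against 2 h were the same, with values of 1.09 at -12.2 kb (adjusted p = 0.00798), 0.95 at +40.4 kb (0.0199) and -1.37 at -70.8 kb (0.00123), while -12.2 kb at 8 h stood at 0.70 (adjusted p = 0.278) and -70.8 kb at -0.89 (adjusted p = 0.158).

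**Figure D3:**
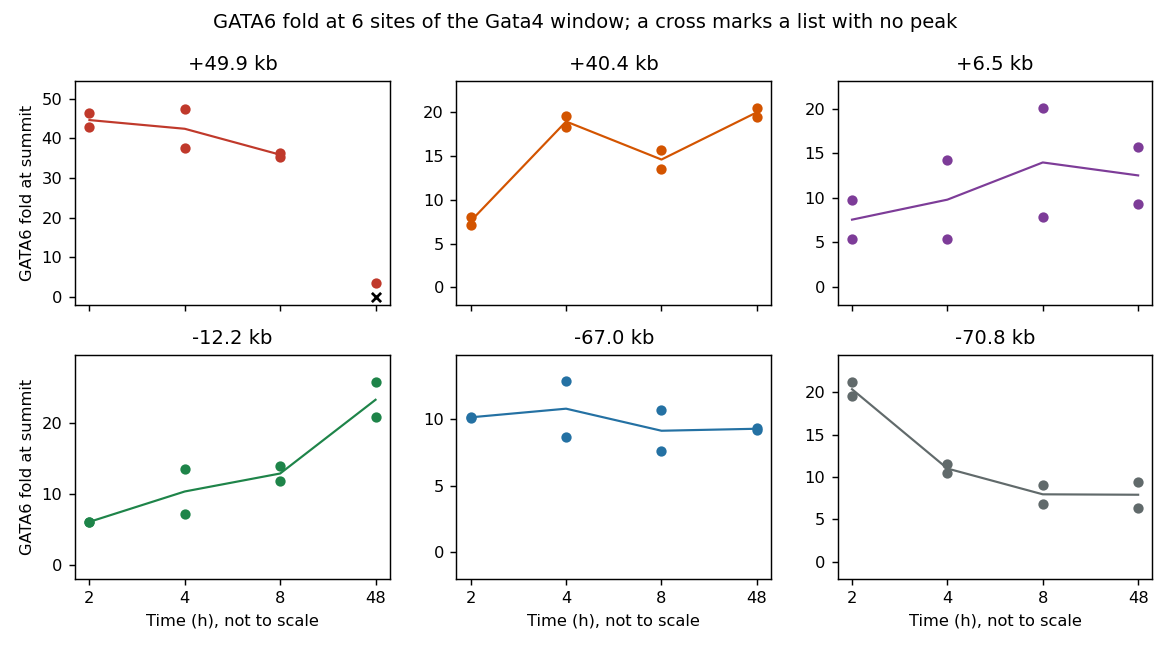
GATA6 fold at the summit in each list (points) and the mean (lines) at 6 sites of the Gata4 window, from 2 to 48 h with the time axis not to scale; a cross marks a list without a peak. The +49.9 kb site keeps folds of 35.4 to 47.4 up to 8 h and then drops out, -12.2 kb climbs to 25.7 and 20.8, and -70.8 kb descends from 19.5 and 21.2.

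The +6.5 kb site shows how a fold can depend on where the summit was placed. Its summits spread over 728 bp, from chr14:63264713 to 63265441, and the local background under them was 1.05 to 4.25 times that of the list. GATA6 folds were 9.73 and 5.38 at 2 h, 14.2 and 5.40 at 4 h, 7.85 and 20.1 at 8 h, and 9.34 and 15.7 at 48 h, and the groups overlapped. The pileups were 24 and 11 fragments at 2 h, 32 and 28 at 4 h, 50 and 49 at 8 h, and 44 and 35 at 48 h. In fragments, unlike in fold, every later list was thus above both 2 h lists.

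At the upstream start site itself GATA6 was present but weak. The +0.1 kb site in the first exon held folds of 4.89 and 5.90 at 2 h, 5.48 and 5.98 at 4 h, 4.57 and 7.65 at 8 h, and 4.26 in 1 of the 2 lists at 48 h, and no NANOG, SOX2, GATA4 or SOX17 peak. The pair of annotated coding transcripts with 7 exons starts 26.4 kb downstream. The peak nearest to these starts, 68 bp away, was in 1 GATA6 list at 2 h, with a fold of 3.56. Single GATA6 lists also held peaks 711 bp (4 h, fold 3.68) and 1199 bp (2 h, fold 3.07) away.

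NANOG peaks were listed in the window at 2 and 4 h, and none at 0 or 8 h. The 0 h lists held none, the 2 h lists 10 and 7, the 4 h lists 4 and 4, and the 8 h lists none. No list at 2 or 4 h overlapped with those at 0 or 8 h. The whole lists held 10693 and 16180 peaks at 0 h, 52285 and 26742 at 2 h, 14911 and 14528 at 4 h, and 5510 and 2255 at 8 h. Per 100000 peaks the window held 19.1 and 26.2 at 2 h and 26.8 and 27.5 at 4 h. The fall in number from 2 to 4 h was thus not a fall in share, and the window was empty at 8 h where the whole lists were shortest. Peak number differed over time (exact permutation test over 2520 arrangements, two-sided, p = 0.0286, adjusted p = 0.0429). It did not pass with either 4 h list left out (p = 0.0571), with the window set to 50 kb (p = 0.0857), with peaks of a -log10 q of at least 5 (p = 0.0857) or in the top 10000 peaks of each list (p = 0.0571, exact permutation tests).

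Of the 12 GATA6 2 h sites, 5 held NANOG at 2 h, near the share of 35.8% of 44122 genome-wide. These 5 had NANOG in neither list at 0 h, which held for 18.5% of the 44122. No list at 0 or 8 h held a NANOG peak in the window. Its absence from these sites at those times therefore follows from the empty window and is no separate result. The 5 sites were +93.7, +49.9, +10.2, -70.8 and -76.7 kb. Read from the NANOG side, all 5 NANOG 2 h sites also held GATA6 at 2 h (81.8% of 19305 genome-wide), all 5 had no NANOG at 0 h (51.9%) and none at 8 h (89%), and 2 held NANOG at 4 h (30.7%). The NANOG lists at 0 h had 28.8% of protein-coding genes without a peak within 100 kb, Gata4 among them, and the share at 8 h was 48.3%.

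The highest NANOG fold, 13.2 from 46 fragments, was at -70.8 kb in the first 2 h list. The second had 6.05 from 19 fragments, and the site held none at 0, 4 or 8 h. At +49.9 kb NANOG had folds of 5.12 and 5.40 at 2 h and 6.32 and 5.86 at 4 h. The peaks at +10.2 kb had folds of 4.16 and 4.31 at 2 h, then 3.68 and 5.53 at 4 h. Neither of these sites passed the limma test of 4 h against 2 h (log2 0.21 and 0.09), where the median site stood at -0.61 and 0.0506% of 5933 sites were higher and 9.15% lower. With each list centred to the same median they stood at 0.81 (limma adjusted p = 0.172) and 0.69 (adjusted p = 0.258), where 1.43% of sites were higher and 0.405% lower. The +93.7 kb site, at the start of Fdft1, held NANOG folds of 4.82 and 3.68 at 2 h, and the -76.7 kb site 3.16 and 3.89. At +40.4 kb NANOG was found in 1 list at 2 h (8.91) and in both at 4 h (6.17 and 6.43).

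At 3 of these sites, peaks of the 2 h size would have stood above the smallest pileups of the 0 h NANOG lists. At the lower 2 h level, the 0 h lists would have held 14.0 and 18.2 fragments at -70.8 kb, 9.59 and 12.4 at +49.9 kb, and 7.38 and 9.56 at +10.2 kb. Their smallest pileups listed at background were 6 and 7. The margin was small at +10.2 kb, so the absence of a peak at 0 h says little there. At +93.7 and -76.7 kb the local background was 2.96 to 5.74 times that of the list, and this comparison does not apply there.

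SOX2 peaks, unlike NANOG peaks, were listed in the window before induction. That was common, since 12.0% of protein-coding genes had no SOX2 peak within 100 kb at 0 h. The Gata4 mean of 4.5 at 0 h, against a median of 3, exceeded that of 63.4% of genes. The whole SOX2 lists at 0 h held 31695 and 26826 peaks. In the window the SOX2 lists held 4 and 5 peaks at 0 h, 7 and 9 at 2 h, 12 and 5 at 4 h, and 5 and 7 at 8 h. These overlapped, and the number was not shown to differ over time (exact permutation test, p = 0.543, adjusted p = 0.543). Without the second 4 h list p was 0.0476.

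Of the 12 GATA6 2 h sites, 3 held SOX2 at 0 h (23.8% of 44122 genome-wide), 5 held it at 2 h (32.1%), 4 at 4 h (34.6%) and again 5 at 8 h (14.5%). The sites that SOX2 held were not the same over time. At 0 h there were 4, at +93.7, +78.0, -67.0 and -70.8 kb, of which the last 2 held SOX2 at 8 h (20.9% of 16958 genome-wide) and 3 held SOX17 at 24 h (34.3%). At 8 h there were 5, at +49.9, +40.4, +6.5, -67.0 and -70.8 kb, and 3 of them had no SOX2 in either 0 h list (39.5% of 7164). Those 3 are the Gata4 intronic sites. All 5 also held GATA6 at 2 h (89.5%) and SOX17 at 24 h (61.7%).

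At +49.9 kb the SOX2 folds were 5.46 and 8.72 at 2 h, 5.21 and 6.63 at 4 h, and 6.35 and 4.75 at 8 h. The +40.4 kb site had SOX2 in 1 list at 2 h (3.69), then folds of 8.88 and 7.65 at 4 h and 8.35 and 12.3 at 8 h. At +6.5 kb there was 1 list at 4 h (6.25) and both at 8 h (5.97 and 5.85). In both lists of a group, SOX2 was thus found first at +49.9 kb, then at +40.4 kb and last at +6.5 kb. At 2 h the 1 list with a +40.4 kb peak had a pileup 18.8 times the list background, against 15.6 and 20.2 times at +49.9 kb. The local background was 4.04 times that of the list at +40.4 kb and 1.04 times at +49.9 kb. The order of listing is therefore not an order of fragments for these sites. At the lower 8 h level the 0 h lists would have held 7.63 and 10.6 fragments at +49.9 kb and 8.59 and 11.9 at +6.5 kb, where their smallest listed pileups were 4 and 5. The local background under the 8 h peaks was 1.99 and 2.06 times that of the list at +49.9 kb. At +6.5 kb it was 1.17 and 1.63 times. Those smallest pileups were listed at background, so they are a limited measure here, most of all at +49.9 kb.

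The pair of upstream sites held SOX2 throughout. The -70.8 kb folds were 10.1 and 8.15 at 0 h, 13.6 and 28.6 at 2 h, 25.8 and 16.6 at 4 h, and 7.03 and 7.13 at 8 h, so every list at 2 and 4 h was above every list at 0 and 8 h. At -67.0 kb they were 6.24 and 3.96, 6.39 and 8.88, 13.5 and 10.2, and 10.4 and 8.55, and all lists after 0 h were above both 0 h lists. In the fit of 8 h against 0 h, -67.0 kb rose by 0.92 (SE 0.34, limma adjusted p = 0.0306), where 3.78% of 3545 sites were higher and 27.7% lower. It did not pass without the second 0 h list (adjusted p = 0.295), the first 8 h list (0.233) or the second (0.0748). The -70.8 kb site stood at -0.36 (adjusted p = 0.441). The median site was at -0.43, and with each list centred to the same median -67.0 kb stood at 1.36 (limma adjusted p = 0.00118) and -70.8 kb at 0.08, where 9.34% of sites were higher and 11.4% lower.

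GATA4 and SOX17 were measured at 24 h only, so their values have no earlier time to be set against. Both GATA4 lists held 8 peaks in the window, and the SOX17 lists held 14 and 25. GATA4 was at 5 sites, +40.4, +39.6, +6.5, -12.2 and -67.0 kb, and 4 of them held GATA6 at 48 h (53.1% of 3127 genome-wide) and 4 held SOX17 (79%). The GATA4 product was thus found at sites around its own gene. Its strongest peak was at -12.2 kb, with folds of 17.0 and 9.49 that ranked 59 of 8427 and 297 of 4006. At -67.0 kb the GATA4 folds were 10.6 and 9.27, at +40.4 kb 5.19 and 5.64, and at +6.5 kb 3.47 and 4.78. The GATA4 lists are deposited as filtered peaks, by a filter that the sources do not give, so a site without a GATA4 peak may have been removed by it.

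SOX17 was at 12 sites, of which 8 held GATA6 at 2 h (54.6% of 19059) and 3 held SOX2 at 0 h (30.5%). At -70.8 kb the SOX17 folds were 38.2 and 50.5 from 123 and 197 fragments, ranking 134 of 27328 and 84 of 41979. At -67.0 kb they were 35.5 and 27.7 from 233 and 278 fragments, ranking 28 and 71. These 2 sites had been in both SOX2 lists at all 4 times. Of the other SOX2 0 h sites, +93.7 kb held SOX17 at 7.90 and 7.72 and +78.0 kb in neither list. The local background at -67.0 kb was 4.15 to 6.26 times that of the lists.

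At +6.5 kb the SOX17 folds were 35.3 and 17.3, from 91 and 125 fragments, which were 73.8 and 80.7 times the background of their lists. The local backgrounds there were 1.3 and 4.05 times the list background. At +40.4 kb SOX17 had folds of 15.3 and 23.0. The -12.2 kb site, which held the strongest GATA4 and 48 h GATA6 peaks of the window, had 5.43 and 5.48. SOX17 was also at the early GATA6 site +49.9 kb, at 5.50 and 7.29. All 6 sites with GATA6 at 48 h held SOX17 (70.1% of 4169 genome-wide) and 4 held GATA4 (39.8%). By the recorded times there were 13 such sites, of which 8 held SOX17 (32.7% of 21214 genome-wide) and 4 held GATA4 (11.7%), and 4 of the 5 GATA4 sites held GATA6 at 48 h (79.1%).

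**Figure D4:**
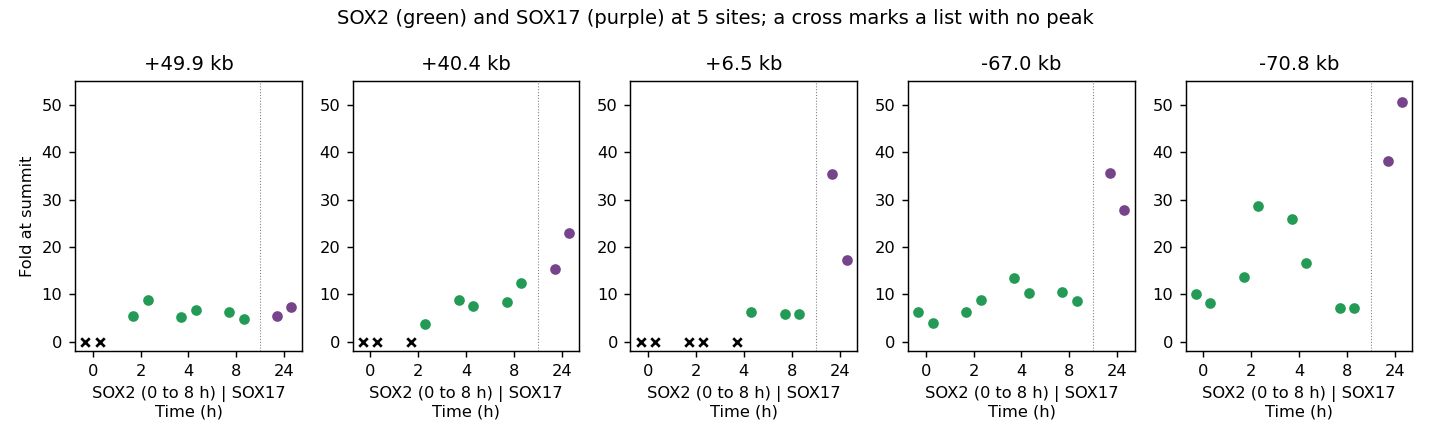
SOX2 fold from 0 to 8 h and SOX17 fold at 24 h in each list (points) at the 5 sites with SOX2 in both lists at 8 h; a cross marks a list without a peak and the dotted line separates the 2 factors. SOX2 is present at -70.8 and -67.0 kb in every list, appears at +49.9 kb from 2 h and at +6.5 kb in both lists at 8 h, and SOX17 reaches 38.2 and 50.5 at -70.8 kb.

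Set beside the 21911 protein-coding genes by peaks within 100 kb, Gata4 ranked higher the later the GATA6 list, by the times in the peak names. Its mean of 15.5 at 2 h, against a median of 7, exceeded that of 83.0% of genes. At 4 h its mean of 14 exceeded 90.5%, at 8 h 15 exceeded 98.7%, and at 48 h 9 exceeded 99.9%, with 14 genes above it and a median gene at 0.5. By the recorded times there was no steady order, the share being 99.9% at 4 h, lower at 8 h with 90.5%, and 98.7% in the lists recorded at 48 h. For GATA4 at 24 h 4 genes had more peaks, and for SOX17 271. Neighbouring genes share peaks, so these ranks are a description.

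Against the other PrE genes listed, the GATA6 2 h to 48 h means were 15.5 to 9 for Gata4, 9.5 to 7.5 for Gata6, 7 to 6 for Sox17, 8 to 4 for Sox7, 18 to 6 for Pdgfra (a receptor used as a PrE marker) and 9.5 to 11 for Foxa2, an endoderm regulator. Those of the Epi genes went from 24.5 to 0.5 for Sox2, 17.5 to 2.5 for Pou5f1, 18 to 0 for Esrrb and 38.5 to 7.5 for Nanog. With a mean of 9 at 48 h Gata4 lay below Foxa2 and above the 8 Epi genes listed, but the 7.5 of Nanog was within the range of the 2 Gata4 lists, 7 and 11. By the recorded times the 48 h means were 15 for Gata4, 21 for Nanog and 6.5 for Foxa2, so that both of these orders turned. NANOG at 0 h was listed near all 8 Epi genes, at means of 2 to 7.5 peaks, and at 0 near Gata4, Gata6 and Sox17. Near the other 5 PrE genes its 0 h means were 0.5 to 3.

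**Figure D5:**
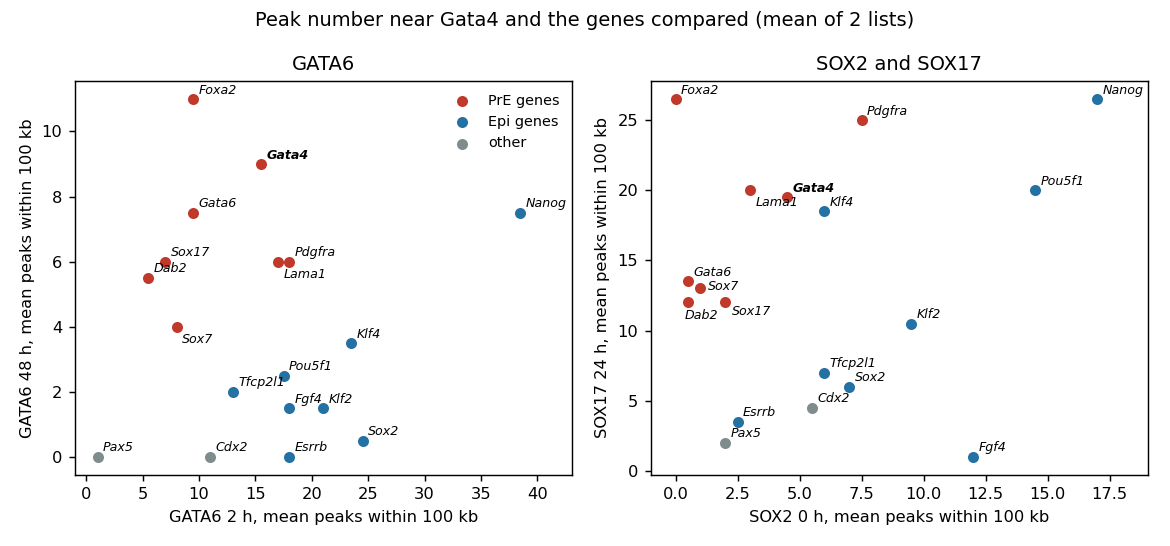
Mean number of peaks within 100 kb of Gata4 and the genes compared; left, GATA6 at 2 h (horizontal) against 48 h (vertical), right, SOX2 at 0 h against SOX17 at 24 h, each the mean of 2 lists. Gata4 sits at 15.5 and 9 on the left, among the PrE genes and above the Epi genes in height, and at 4.5 and 19.5 on the right.

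Over the 30 lists, the Pearson correlation with Gata4 of log2 peak number plus 1, less the mean of each list over genes, was 0.62 to 0.80 for the 7 other PrE genes listed, Pdgfra being at 0.80. It was -0.32 for Fgf4, -0.03 for Sox2, 0.31 for Pou5f1, 0.52 for Nanog and 0.62 for Klf4 among the Epi genes. The trophectoderm gene Cdx2 stood at -0.26 and the B cell gene Pax5 at -0.24. Snx2 (0.90), Ropn1l (0.90), Pik3r1 (0.89) and 9530003J23Rik (0.88) were among the 5 genes most like Gata4 of those over 1 Mb away. All genes are measured in the same lists, whose depths differ between factors, and the duplicates are not independent points, so the correlations are a description.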

How the data were processed

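The study profiled chromatin in 57 samples, of which 30 CUT&RUN peak lists of transcription factors were analysed. The other 27 (histone marks, IgG and blastocysts) are not analysed here. Per the labels and the methods, read pairs were aligned by the authors to mm10 with Bowtie2. They removed reads in blacklisted regions with SAMtools, kept duplicates, and called narrow peaks with MACS per library against a rabbit anti-rabbit antibody control. The deposited lists hold, for each peak, a fold over local background (a ratio), a -log10 p and a -log10 q. Those for GATA4 are filtered. The main tests used the lists unpaired, with groups taken from the sample labels and, for 6 GATA6 lists, time from the peak names.

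Summits within 250 bp were joined by single linkage over all 30 lists. Whole-fragment pileups and local backgrounds were recovered from the fold and -log10 p together. Window counts were compared over time by exact permutation tests, adjusted by Benjamini-Hochberg over 3 factors. Folds were compared on the log2 scale with limma 3.58.1 in R 4.3.3, with adjustment over all sites in all 4 lists. This fit, the SOX letters, the test over 2 to 48 h and the description of SOX2 8 h sites were chosen after the data had been seen. Other steps used Python 3.11.15, pandas 2.3.3 and scipy 1.17.1, and the tests were tried on simulated data. Of 775358 peaks, 775295 lay on the 21 main chromosomes and 0 ran beyond a chromosome end in the mm10 reference used for sequence and annotation. Sites in both lists of at least 3 groups were described in full. The window, sites and gene lists were chosen with earlier results of these data known. Same-numbered lists deviated together by correlations of -0.04 to 0 for GATA6, -0.17 to 0.15 for NANOG and -0.09 to 0.07 for SOX2, so replicate numbers were not used as pairs. Some genes and sequences are not reported here.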

Additional observations from a re-analysis of the deposited data

How the results depend on the processing

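The difference of the mean GATA6 peak number, 15.5 between 2 h and 0 h, was 15 to 16 with any list left out. The test passed under all 16 alternatives, each of which kept at least 1 list of 0 h. Over 2 to 48 h alone, the difference of -6.5 became -0.5 by the recorded times and -8.5 to -4.5 with a list left out. The NANOG difference of 8.5 no longer passed at a -log10 q of at least 5 (3.5, p = 0.0857), in the top 10000 peaks of each list (1.5, p = 0.0571), at 50 kb (3.5) and with a replicate block (8.5, exact permutation p = 0.0833), and was 7 to 10 with a list left out. The block changed no other call (GATA6 p = 0.0333, SOX2 p = 0.583, exact permutation tests). The SOX2 difference, 3.5, turned to -0.5 in the top 10000 peaks and was 2.5 to 4.5 with a list left out. The 12 GATA6 2 h sites became 4, 19 and 7 with the top 10000 peaks, with a peak in either list sufficing and at 50 kb, and 15 to 16 without a 2 h list. The 5 with GATA6 at 48 h became 2, 11 and 3 under the same 3 settings. By the recorded times they were 10, beside a share of 36.9% genome-wide. With a list left out they were 5 to 9, 9 being without the first 48 h list. The 5 with a NANOG gain became 1, 8 and 2 under those settings, 2 at the stricter q, and 5 to 8 with a list left out, 8 being without the second 2 h NANOG list. The 6 sites with a GATA match became 3 and 11 at 50 and 150 bp. Sites with a changed GATA6 fold numbered 3 at 48 h (3 to 5 with a list left out, 5 without the first 48 h list), 1 at 4 h (0 to 0, and 3 by the recorded times), 3 at 8 h (1 to 4, and 1 by the recorded times), and 1 for SOX2 (0 to 1). Centring turned -67.0 kb at 48 h to 0.63 and +49.9 kb to 0.15 at 4 h and 0.19 at 8 h, and the latter site stood at -0.25 to 0.09 at 4 h with a list left out, 0.09 being without the first 4 h list. Centring moved the calls genome-wide from 970 higher and 5450 lower to 2714 and 2290 at 8 h, from 281 and 698 to 531 and 168 at 4 h, from 3 and 543 to 85 and 24 for NANOG, and from 134 and 981 to 331 and 405 for SOX2. The cause of these changes was not tested beyond what the settings themselves alter. Depth limits the absence of GATA6 at 0 h and, with 2 lists a group, the smallest p that the NANOG and SOX2 tests could reach was 0.00952.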
